A study of Homo sapiens with 6 samples.

Results

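The zinc finger genes of chromosome 19 were taken as the protein-coding genes on that chromosome whose symbol is ZNF followed by a number, with at least 10 counts in at least 3 of the 6 libraries. Of the 247 such genes that GENCODE release 29 annotates on chromosome 19, each of which has an entry in the deposited gene table of 78932 genes, 183 met this minimum and are the members described here. The other 64 did not, and 31 of them had 0 counts in all 6 libraries. Among the members just inside the limit, ZNF233 had 9, 14 and 10 counts in the overexpression libraries and 11, 11 and 7 in the others, ZNF726 and ZNF671 were counted in the overexpression libraries alone, and ZNF429 had 0 counts there against 17, 20 and 20. Just outside it were ZNF493, ZNF724 and ZNF132, which reached the minimum in 2 libraries each. ZNF132, for example, had 8, 16 and 25 counts in the libraries labelled wild type and 0 in the others.

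RNA of A549, an established line of human lung adenocarcinoma cells, was sequenced from cells labelled wild type and from cells that overexpress HIF-1β, the product of ARNT and the constitutive partner of the hypoxia-inducible factors. Both groups were grown in RPMI with fetal bovine serum, the treatment given is a transfection with no further detail, and each group had 3 libraries numbered 1 to 3. The labels name polyA RNA in one field and a stranded total RNA kit with ribosomal depletion in another, and they do not say whether the 3 libraries of each group are separate cultures. The p-values therefore measure a spread between libraries that may be technical. No vector control, construct or clone is named in the labels.

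Most of these genes encode proteins with a row of C2H2 zinc fingers that binds DNA, and many carry a KRAB domain at the other end. KRAB recruits TRIM28, which brings the methyltransferase SETDB1, HP1 proteins and DNA methylation to the bound site, and the best known targets are transposable elements. The genes arose largely by tandem duplication, so they lie in dense clusters along chromosome 19, and the bodies of the genes themselves often carry the same heterochromatin mark.

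The libraries held between 17192161 and 24454236 counts, and values are given as CPM, counts scaled to a common library size. As a check of the labels, ARNT was at 139 ± 8.30 against 43.8 ± 5.67 CPM in overexpression against labelled wild type, 3.18-fold higher (SD, n = 3 per group; log2 fold change 1.67, SE 0.0955, adjusted p = 6.5e-08 by edgeR's quasi-likelihood test with Benjamini-Hochberg adjustment). MTAP, which lies beside CDKN2A in a region that A549 is known to have lost, had 0.391 ± 0.232 CPM in overexpression but 78.1 ± 5.00 CPM in the libraries labelled wild type, so the latter go against their label in this gene. CDKN2A and CDKN2B had 0 reads in all 6 libraries. A difference of line or clone and the overexpression cannot be told apart in this design, and the second group is called "labelled wild type" throughout. Of the 16091 genes tested, 74.0% were called at an adjusted p under 0.05, with 38.3% higher and 35.7% lower in overexpression. Of 5 epithelial markers 4 were higher in overexpression and KRT19 was lower, and they summed to between 6500 and 7090 CPM there and to between 2560 and 2790 CPM in the others. KRT8 and KRT18, 2.66-fold and 2.58-fold higher, made up most of these sums. CDH1 was 339-fold higher, at a mean of 227.6 against 0.672 CPM, and EPCAM was at 3.10 against 0.0171 CPM. KRT19 was 418-fold lower, at 0.497 against 207.5 CPM. Of 4 mesenchymal markers 3 were lower, FN1 among them, with sums from 1260 to 1450 CPM against 10200 to 12200 CPM. The 5 fibroblast markers, of which COL1A2 was at 0 throughout, summed to between 7.89 and 8.46 CPM against 12.6 to 17.4 CPM. These sums hide opposite directions, since of the 3 fibroblast markers tested 1 was higher in overexpression and 2 lower. COL1A1 was 9.83-fold higher, at a mean of 8.14 against 0.828 CPM, whereas COL3A1 was lower, at 0.0144 against 13.02 CPM. The 4 leukocyte markers summed to between 34.9 and 41.8 CPM against 15.9 to 16.5 CPM. PTPRC and CD3E, which define leukocytes, were at 0 in all libraries, and endothelial markers summed to at most 0.243 CPM in any library. The part of these marker differences in the results below was not tested.

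The upstream sequences of 6 members are shown, chosen by the values given below. ZNF700, ZNF568 and ZNF83 each had at most 1 read over the overexpression libraries. Each lies in a long run of neighbouring genes that were over 4-fold lower there. ZNF799 is the first neighbour beyond one of those runs that was not called. ZNF43 and ZNF331 had the largest fitted rises, but with 0 reads in the other group the size for ZNF43 is not measured. Whether the sequences bear on the values was not tested. Each is the 250 bases before the transcription start in RefSeq, on the gene's own strand and from GRCh38.p14. Capitals mark CpG pairs, the bases at which DNA methylation occurs. In order along the chromosome the windows are chr19:11924857-11925106 on the plus strand for ZNF700, chr19:12401272-12401521 on the minus strand for ZNF799, chr19:21836183-21836432 on the minus strand for ZNF43, chr19:36916082-36916331 on the plus strand for ZNF568, chr19:52690497-52690746 on the minus strand for ZNF83 and chr19:53520764-53521013 on the plus strand for ZNF331.
ZNF700: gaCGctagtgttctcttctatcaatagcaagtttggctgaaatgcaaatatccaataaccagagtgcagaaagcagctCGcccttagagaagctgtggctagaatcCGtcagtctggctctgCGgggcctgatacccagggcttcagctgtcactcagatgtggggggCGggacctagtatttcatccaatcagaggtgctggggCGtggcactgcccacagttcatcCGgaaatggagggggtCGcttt
ZNF799: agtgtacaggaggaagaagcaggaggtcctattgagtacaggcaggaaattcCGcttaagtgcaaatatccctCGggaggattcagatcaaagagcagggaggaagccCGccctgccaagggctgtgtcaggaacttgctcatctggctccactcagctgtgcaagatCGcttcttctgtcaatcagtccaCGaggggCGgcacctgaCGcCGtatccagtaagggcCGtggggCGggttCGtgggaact
ZNF43: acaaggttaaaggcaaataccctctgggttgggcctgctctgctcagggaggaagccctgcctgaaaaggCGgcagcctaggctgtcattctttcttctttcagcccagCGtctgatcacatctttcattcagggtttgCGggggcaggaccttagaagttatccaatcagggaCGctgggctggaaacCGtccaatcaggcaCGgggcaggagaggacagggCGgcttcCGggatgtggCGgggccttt
ZNF568: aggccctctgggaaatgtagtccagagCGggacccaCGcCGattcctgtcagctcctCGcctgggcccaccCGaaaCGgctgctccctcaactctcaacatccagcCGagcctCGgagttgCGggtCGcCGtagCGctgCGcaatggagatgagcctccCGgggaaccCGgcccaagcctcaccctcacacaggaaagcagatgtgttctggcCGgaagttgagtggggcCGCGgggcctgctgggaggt
ZNF83: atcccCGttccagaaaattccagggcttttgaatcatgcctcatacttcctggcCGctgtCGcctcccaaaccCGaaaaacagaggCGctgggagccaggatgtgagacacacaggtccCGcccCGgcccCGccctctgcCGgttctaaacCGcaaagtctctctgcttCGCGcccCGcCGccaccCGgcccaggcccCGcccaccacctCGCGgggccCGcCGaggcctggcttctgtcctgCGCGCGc
ZNF331: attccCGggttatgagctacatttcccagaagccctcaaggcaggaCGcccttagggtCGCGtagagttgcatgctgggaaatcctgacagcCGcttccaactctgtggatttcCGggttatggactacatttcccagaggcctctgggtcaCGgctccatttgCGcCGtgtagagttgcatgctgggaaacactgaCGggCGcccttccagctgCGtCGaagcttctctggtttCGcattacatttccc
The windows held 8 CpG pairs for ZNF700, 11 for ZNF799, 9 for ZNF43, 18 for ZNF568, 23 for ZNF83 and 14 for ZNF331.

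As a set the members were lower in the overexpression libraries. Of the 183, 97 were called lower, 48 higher and 38 neither, which is 53.0% lower and 26.2% higher against 35.7% and 38.3% of all genes tested. Their median log2 fold change was -0.52, beside 0.03 over all tested genes. The 229 tested ZNF genes on other chromosomes had a median of -0.19, with 98 lower and 64 higher. The 771 other tested protein-coding genes of chromosome 19 lay on the opposite side, with 435 higher, 180 lower and a median of 0.53. These counts are descriptions: 29 of the members met the count minimum in a single group, 21 of them in the libraries labelled wild type and 8 in the overexpression libraries, so those had to differ. Among the 143 members with at least 10 counts in every library, 68 were lower and 39 higher. The matching count for all tested genes was not made. Paired by replicate number, 104 members, or 56.8%, were lower in overexpression in all 3 pairs and 53, or 29%, were higher in all 3, beside 40.9% and 43.6% of all tested genes. Tandem duplicates resemble each other, and the quantification divides reads among similar transcripts, so the values of close relatives are uncertain to that extent.

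Large differences were mostly in one direction. Among the members 42 were called and over 4-fold lower, or 23.0% beside a background of 6.69%, and 11 were called and over 4-fold higher, or 6.01% beside 14.2%. Of these, 21 of the 42 and 8 of the 11 are members that met the minimum in a single group. ZNF genes elsewhere had 8 of 229 over 4-fold lower, or 3.49%, and the other coding genes of chromosome 19 had 20 of 771, or 2.59%. In 147 members, or 80.3%, the CPM of the 2 groups had separate ranges, a share near the background of 77.3% of all genes (37.4% lower and 39.9% higher in overexpression).

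Some members were present in one group and nearly absent in the other. A gene was taken as on where every library of a group reached 1 CPM, and as near-silent where every library of the other stayed below 0.1 CPM. By this rule, 13 members were on in the libraries labelled wild type and near-silent in overexpression, or 7.1% beside 1.29% of all genes. The reverse held for 3 members, ZNF43, ZNF738 and ZNF285, or 1.64% beside 2.3%. All 13, and likewise all 3, met the count minimum only through the group in which they were on, so nothing is read from these shares. The summed CPM of the members was between 1630 and 1680 in the overexpression libraries and between 2100 and 2290 in the others. Each overexpression library had 137 to 143 members at 1 CPM or more, and each library labelled wild type had 166 to 168. More members met the count minimum only through the libraries labelled wild type, 21 against 8, so these counts lean to that group by the rule. In bulk RNA, fewer cells that express a gene and less RNA per cell cannot be told apart.

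**Figure D1:**
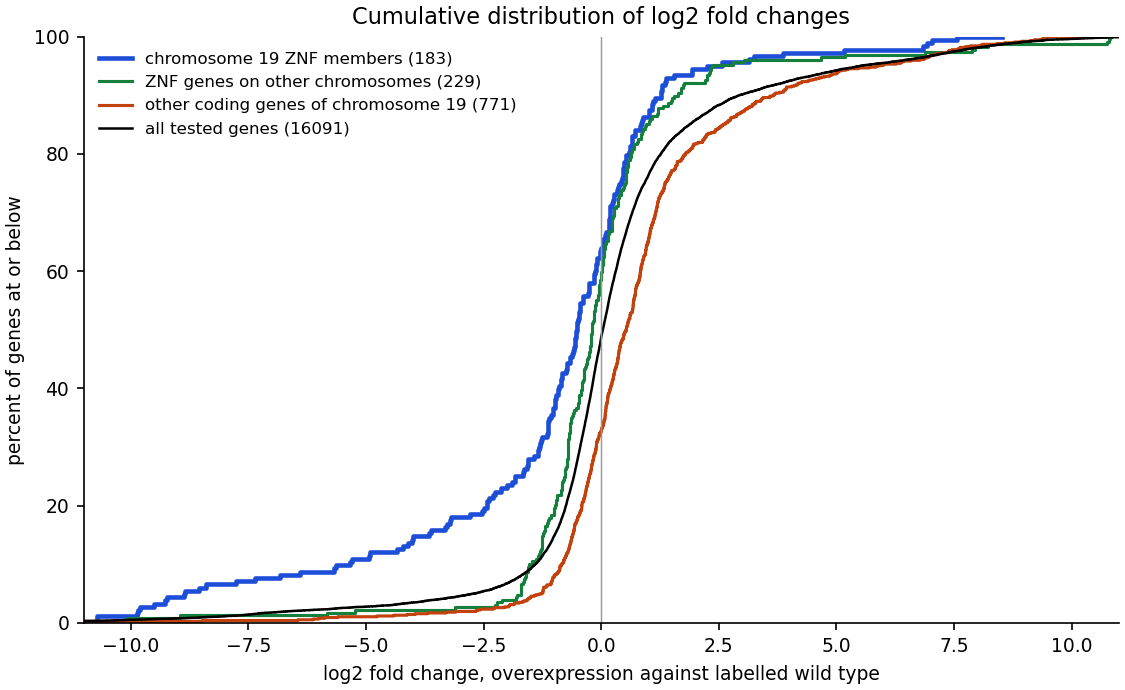
Cumulative percent of genes (vertical axis) at or below each log2 fold change of overexpression against the libraries labelled wild type (horizontal axis, drawn from -11 to 11), for the 183 members, 229 ZNF genes on other chromosomes, 771 other coding genes of chromosome 19 and all 16091 tested genes. The members' curve lies to the left, with a long lower tail, and the other coding genes of chromosome 19 lie to the right of all tested genes.

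Along the chromosome the difference was uneven. Wherever neighbouring annotated ZNF genes lay more than 1 Mb apart a new cluster was begun, which gave 16 clusters, 8 of them with at least 5 members. On the long arm between 51.57 and 53.58 Mb, 22 of 27 members were lower and 1 was higher, with a median log2 fold change of -2.27, and 15 were over 4-fold lower. Between 36.18 and 37.82 Mb, 19 of 23 members were lower and 2 higher, with a median of -1.15 and 10 over 4-fold lower. On the short arm, 11 of 14 members between 7.07 and 9.79 Mb were lower and 1 higher (median -1.07), as were 8 of 13 against 1 between 11.48 and 12.64 Mb (median -0.83).

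Other clusters did not share this. The 23 members between 43.53 and 45.08 Mb had 9 higher, 5 lower and a median of 0.04, and none was over 4-fold lower. The 5 members between 34.68 and 34.96 Mb had 3 higher and 0 lower, the 3 between 39.98 and 40.09 Mb were all higher, and so were both between 42.07 and 42.23 Mb. The cluster nearest the end of the long arm, between 55.48 and 58.48 Mb, is the one with the most members and was mixed, with 23 of 52 lower, 19 higher and a median of -0.15. Of the 42 members over 4-fold lower, 30 lay in 3 clusters, those from 11.48, 36.18 and 51.57 Mb, which together hold 63 members. In these 3 clusters 4, 5 and 8 members, respectively, met the count minimum only through the libraries labelled wild type. Those had to be lower, so the grouping follows in part from the count rule.

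Genes of other families lie inside some cluster spans. The 3 other tested coding genes between 51.57 and 53.58 Mb were all higher, with a median log2 fold change of 1.07, whereas of the 3 between 11.48 and 12.64 Mb none was higher and 1 was lower, with a median of -0.18. In the span from 7.07 to 9.79 Mb, 12 of 31 were higher and 10 lower, and in the span from 55.48 to 58.48 Mb, 14 of 20 were higher and 3 lower. The spans are short of such genes in places: that from 36.18 to 37.82 Mb holds 2 that were tested, 1 higher and 1 lower. In the span from 43.53 to 45.08 Mb, whose members were mixed, 13 of 20 were higher and 1 lower. Over all of chromosome 19, 56.4% of the other tested coding genes were higher and 23.3% lower. No test of these differences was made, and nothing is read from the counts of single spans.

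**Figure D2:**
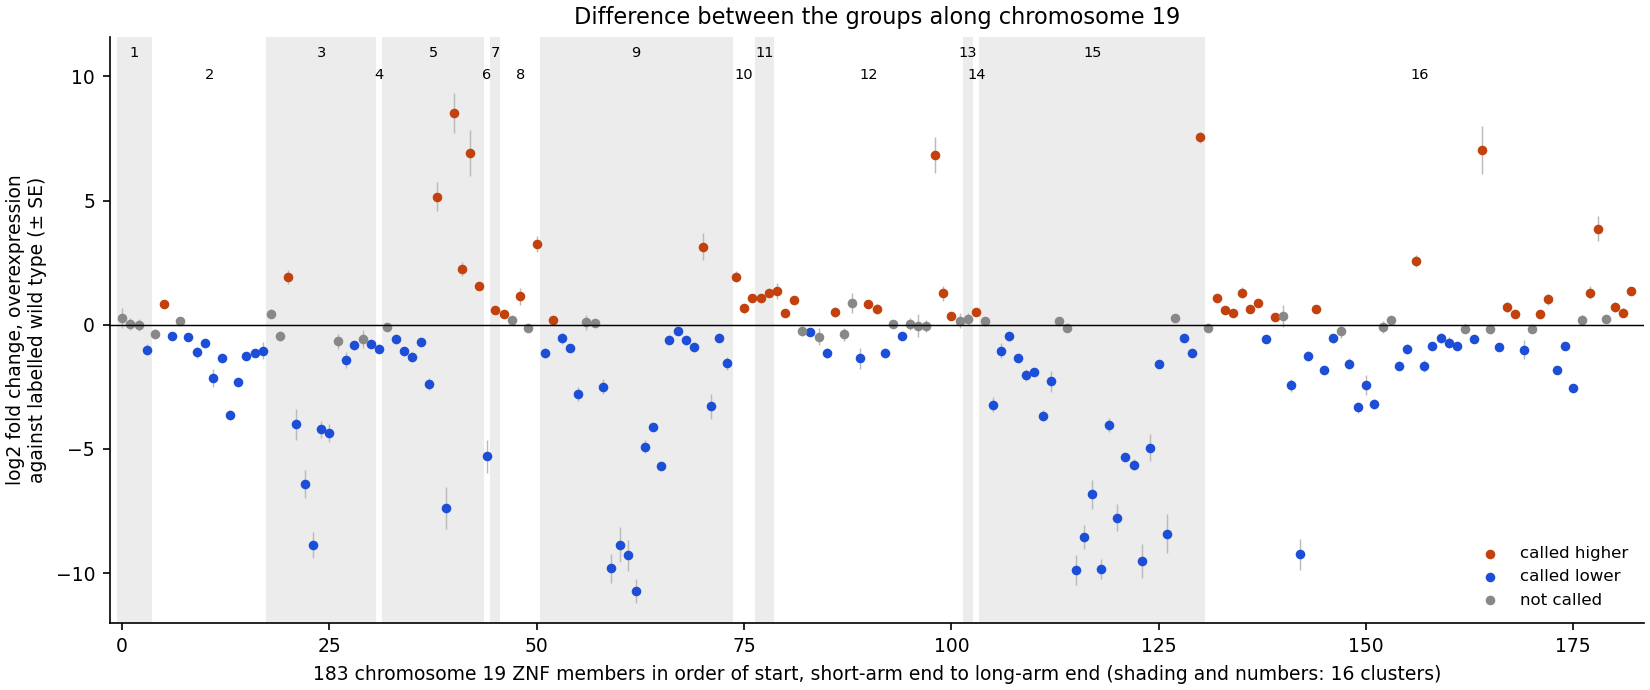
Log2 fold change with its SE (vertical axis) of each of the 183 members in order of start along chromosome 19 (horizontal axis), coloured by call at an adjusted p under 0.05, with the 16 clusters numbered and shaded in turn. Low values group in clusters 3, 9 and 15, whereas cluster 12 lies about 0 and clusters 10 and 11 above it.

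**Figure D3:**
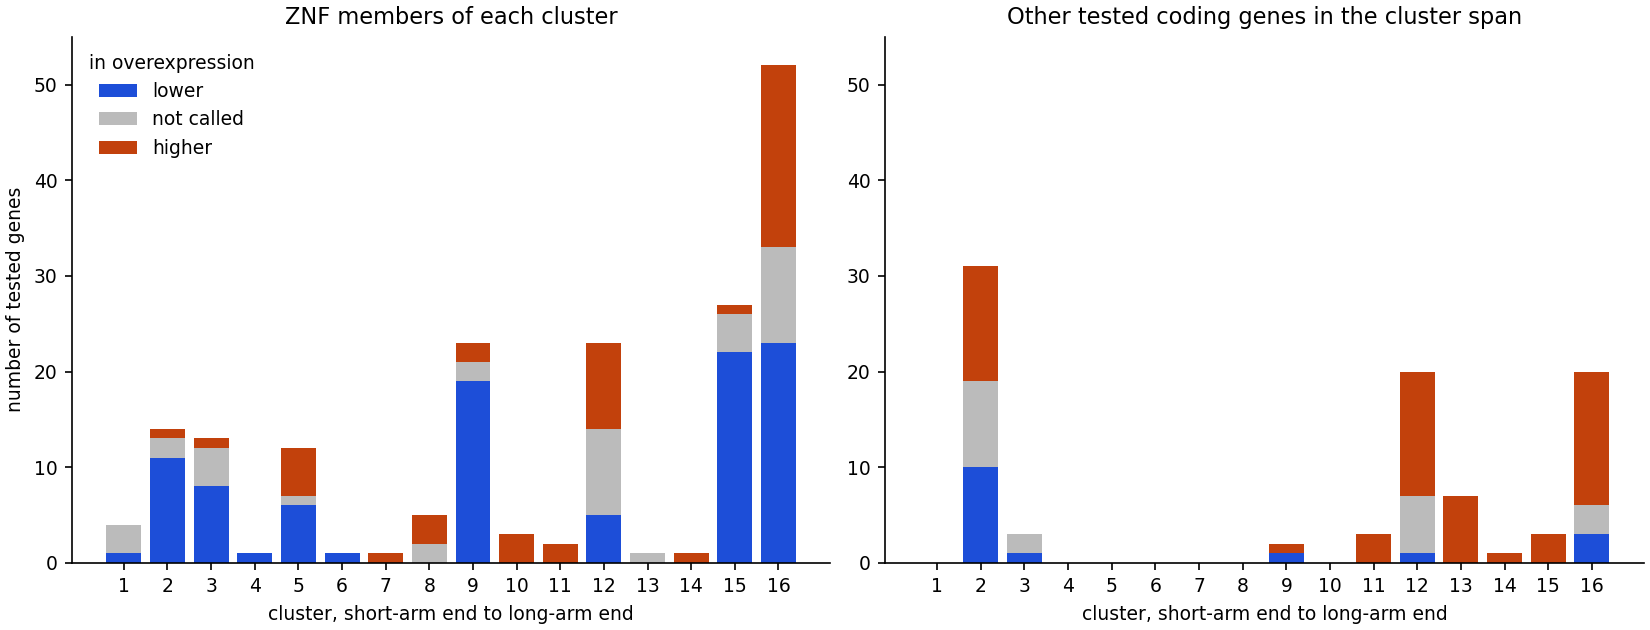
Number of tested genes (vertical axis) called lower, not called or called higher in overexpression in each of the 16 clusters (horizontal axis), on the left for ZNF members and on the right for the other tested coding genes in the same spans. Cluster 15 has 22 of 27 members lower beside 3 other coding genes that were all higher. Over all of chromosome 19, 56.4% of the other tested coding genes were higher.

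Neighbouring members called in the same direction formed 17 runs of at least 3 genes, 12 lower and 5 higher. Of the members 79.2% were called, beside 74.0% of all tested genes. Runs of other genes were not counted, so nothing is read from the number of runs. A stricter rule, added after the values were seen, asked that each neighbour be called and over 4-fold lower. It left 3 runs of 5 or more genes, which hold 23 of the 42 members over 4-fold lower and 11 of the 13 that were near-silent in overexpression. The runs were picked by these same values, and all 13 met the count minimum only through the libraries labelled wild type. These shares follow in part from the rules, so nothing is read from them.

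The first long run goes from ZNF441 to ZNF44, over 528 kb of the short arm (chromosome 19, 11767000 to 12294887), and has 5 members with a median log2 fold change of -4.35. Together they summed to between 0.561 and 0.823 CPM in the overexpression libraries and between 23.8 and 31.2 CPM in the others. ZNF700 was at 0.0429, 0 and 0 CPM in overexpression replicates 1 to 3, a single read, beside 9.59, 7.11 and 11.9 CPM in the other group. The groups lie far apart, with a ratio of 662 and a 95% counting interval from 118 to 26182 (log2 fold change -8.86, adjusted p = 6.8e-08 by edgeR). ZNF440 was at 0, 0 and 0.216 against 6.37, 5.83 and 7.88 CPM, and ZNF136 at 0.429, 0.412 and 0.129 against 5.89, 5.88 and 6.45 CPM. ZNF136 was 18.8-fold lower. The 5 overexpression reads of ZNF440 were all in replicate 3, so its 93.1-fold difference becomes a bound of at least 100.7-fold without that library, at 3 counts over the libraries left, and 62.1-fold without replicate 1 or 2. ZNF44 was 21.3-fold lower and ZNF441 16.4-fold, or 45.7-fold without overexpression replicate 2. The single read of ZNF700 was in replicate 1, without which it was at least 142.9-fold lower.

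The members next to this run on either side were not lower by the test. ZNF823, which ends 28.0 kb before it, was the one member of the cluster called higher, at 5.33, 4.16 and 5.65 CPM against 1.46, 1.69 and 0.880 CPM (3.76-fold, log2 fold change 1.92, adjusted p = 9.7e-05 by edgeR). ZNF799, which begins 95.1 kb after the run, was at 1.07, 1.05 and 1.77 against 2.06, 1.98 and 2.08 CPM and was not called (adjusted p = 0.071). All 3 of its overexpression values lie below the other group, but by much less than in the run. Further on, ZNF443, ZNF564 and ZNF791 were called lower again, by 2.7-fold, 1.77-fold and 1.68-fold (adjusted p = 0.0023, 0.0025 and 1.6e-04 by edgeR). Within the run's span 9 further ZNF genes are annotated that did not meet the count minimum in either group.

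The second long run, from ZNF850 to ZNF585B, has 8 members over 504 kb (chromosome 19, 36714383 to 37218153) and a median log2 fold change of -7.27. The members summed to between 4.04 and 5.26 CPM in overexpression and between 155 and 178 CPM in the libraries labelled wild type. ZNF568, whose mouse counterpart represses a placental transcript of Igf2, had 0 reads in the 3 overexpression libraries and 9.32, 10.1 and 10.1 CPM in the others. Against the limit that 3 counts over the group allow, this is at least 224-fold lower (adjusted p = 8.7e-08 by edgeR). ZNF790, ZNF345 and ZNF829 also had 0 reads in overexpression, beside means of 5.25 ± 0.617, 2.70 ± 0.404 and 3.61 ± 0.240 CPM, and were at least 119-fold, 61.5-fold and 82.3-fold lower. These limits cover counting error only.

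The other genes of the second run had some reads in overexpression. ZNF585B was at 1.57, 2.47 and 1.65 CPM in overexpression, beside 91.7, 108 and 94.3 CPM in the other group, so that no library came near the other group. It was 51.6-fold lower (log2 fold change -5.69, SE 0.145, adjusted p = 1.4e-10 by edgeR). Its neighbour and close relative ZNF585A was 17.4-fold lower, at 1.67 ± 0.284 against 29.1 ± 2.29 CPM, and reads of the pair may be shared between them by the quantification. ZNF420, which has been described as a repressor of p53-dependent apoptosis genes, was at 0.601, 0.640 and 0.302 against 13.2, 15.3 and 18.1 CPM, or 30.2-fold lower. ZNF850, at the run's edge, was 5.67-fold lower.

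The genes on either side of the second run overlap it and differed by less than its members. ZNF567 was at 10.4, 10.6 and 10.5 CPM in overexpression and at 8.13, 9.77 and 11.8 CPM in the other libraries (adjusted p = 0.66), with overlapping ranges. ZNF461 before it was not called, but ZNF529, before that, was 6.93-fold lower (adjusted p = 3.9e-06 by edgeR). ZNF383 was 1.52-fold lower, at 4.38, 4.76 and 5.52 against 7.04, 6.75 and 8.46 CPM (adjusted p = 0.011). The next members, ZNF875, ZNF527 and ZNF569, were called lower as well, by 1.19-fold, 1.53-fold and 1.87-fold. By calls alone the run therefore goes on to ZNF569 and has 12 members. The call of ZNF875 was lost under several alternatives. A little further on, ZNF570 was higher in overexpression in the middle of lower genes, at 0.942 ± 0.219 against 0.106 ± 0.0681 CPM. The difference was 8.91-fold (adjusted p = 3.1e-04 by edgeR), or 13.9-fold without wild-type replicate 1. ZNF146, near the start of the same cluster, encodes a protein of zinc fingers without a KRAB domain. It was at 204, 200 and 215 CPM against 179, 179 and 183 CPM, 1.14-fold higher (adjusted p = 0.015), a call that was lost without overexpression replicate 3 (adjusted p = 0.054), without wild-type replicate 1 (0.089) or 3 (0.051) and with no filter on low counts (0.066).

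The third long run, from ZNF610 to ZNF816, has 10 members over 627 kb (chromosome 19, 52336245 to 52962911) and a median log2 fold change of -7.30. Within its span 5 further ZNF genes are annotated that did not meet the count minimum in either group. The members of the run summed to between 1.55 and 2.88 CPM in overexpression and between 120 and 131 CPM in the libraries labelled wild type. ZNF83 was at 0.0429, 0 and 0 CPM in overexpression, again a single read, and at 16.3, 17.5 and 22.2 CPM in the others. Its ratio was 1302, with a counting interval from 233 to 51464 (log2 fold change -9.84, adjusted p = 4.1e-09 by edgeR). ZNF610 had 0 reads against 4.49, 5.37 and 6.45 CPM, at least 124-fold lower, and ZNF888 had 0 reads against 3.21, 4.04 and 5.46 CPM, at least 96.5-fold lower. ZNF808, known for repressing MER11 elements in the developing pancreas, had 1 read in overexpression and 6.64, 8.25 and 7.99 CPM in the others. ZNF701 and ZNF600 had 2 reads each over the group. Without the library that held these reads, overexpression replicate 1 for ZNF83, ZNF808 and ZNF600 and replicate 3 for ZNF701, they were at least 280.6-fold, 114.5-fold, 114.4-fold and 59.9-fold lower, respectively.

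ZNF28 and ZNF468, further along the third run, were at a low level in every overexpression library. ZNF28 was at 0.635, 0.594 and 0.604 CPM against 27.5, 24.2 and 23.6 CPM, 40.8-fold lower (log2 fold change -5.34, SE 0.165, adjusted p = 5.1e-10 by edgeR). ZNF468 was at 0.782, 1.10 and 0.345 against 36.4, 37.6 and 35.6 CPM, 49.5-fold lower. ZNF611 was 16.5-fold lower and ZNF816 32.2-fold, or 92.6-fold without overexpression replicate 1 and 21.4-fold without replicate 2.

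At the near edge of this run the next member was not called. ZNF480, which ends 10.3 kb before ZNF610, was at 29.9, 31.1 and 35.8 CPM in overexpression and at 31.7, 33.8 and 41.0 CPM in the other libraries, with overlapping ranges and no call (adjusted p = 0.28). ZNF766, the member before it, was at 25.3, 25.3 and 21.7 against 20.5, 20.4 and 23.2 CPM and was not called either (adjusted p = 0.14; 0.028 when libraries were scaled by their totals). On the far side ZNF160 was lower by less, 2.99-fold, and ZNF347 had 0 reads in overexpression against 2.37, 2.15 and 1.47 CPM. The next member, ZNF845, was not called, at 14.6, 15.0 and 14.2 against 11.5, 10.1 and 14.7 CPM (adjusted p = 0.12).

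**Figure D4:**
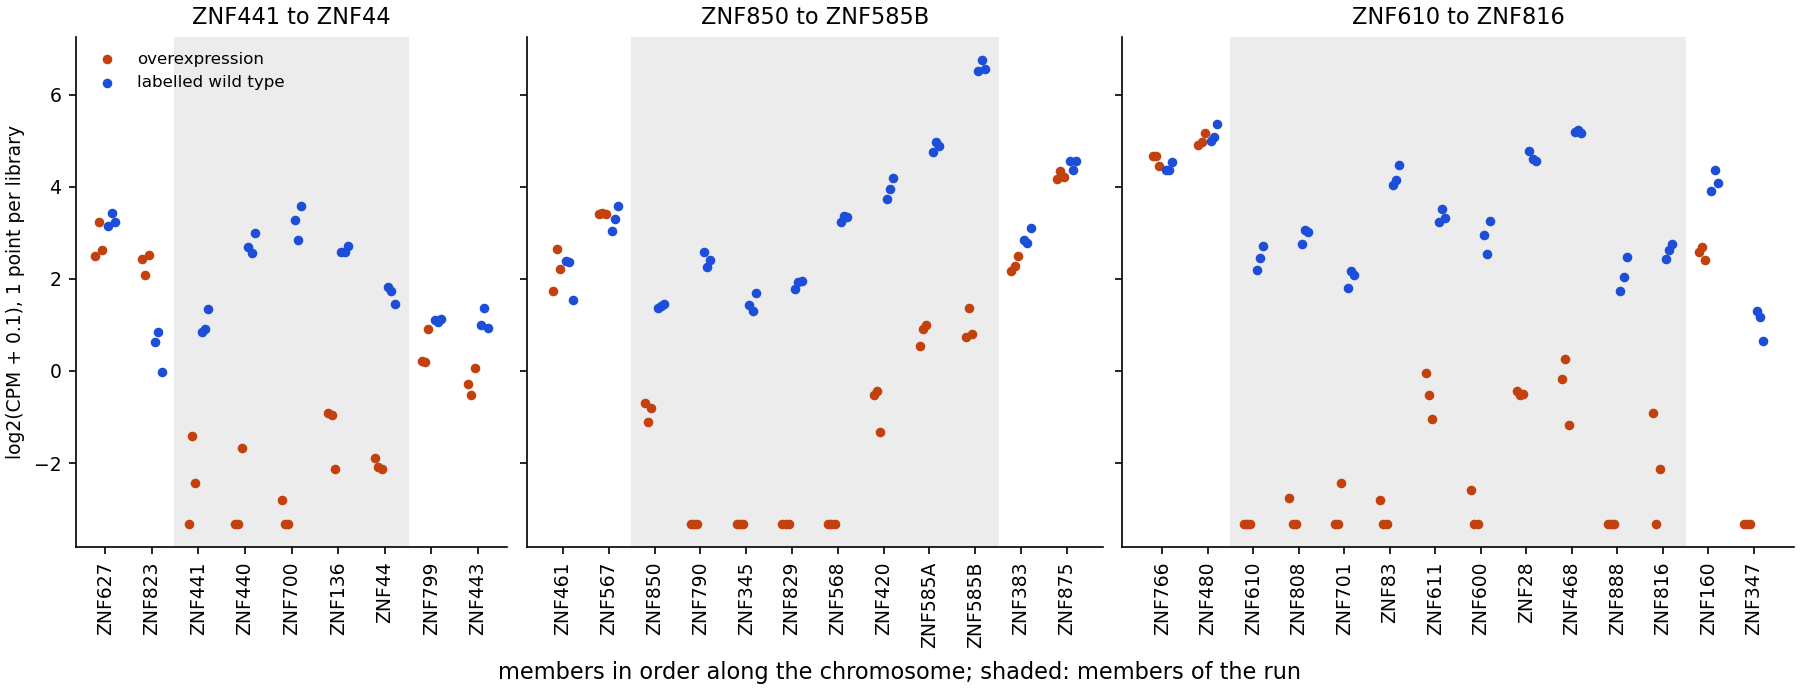
Log2(CPM + 0.1) in each library (vertical axis, 1 point per library; red for overexpression, blue for labelled wild type) of the members of the 3 long runs, shaded, and of the 2 members on either side of each, in order along the chromosome (horizontal axis). For each gene inside the shading the 3 overexpression points lie below the 3 blue ones; the lowest row of points is 0 reads, and the points of ZNF567, ZNF480 and ZNF766 lie at similar heights in both groups.

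Transcripts that are not ZNF members lay inside the same runs. The antisense gene ZNF790-AS1 had 0 reads in overexpression and a mean of 6.46 ± 1.45 CPM in the other group, at least 147-fold lower (adjusted p = 7.7e-07 by edgeR). An unnamed sense-intronic transcript within the third run, ENSG00000269825, had 0 reads against 15.6 ± 3.12 CPM, at least 355-fold lower (adjusted p = 1e-07). Of the members, 48 overlap a coding gene on the same strand, among them ZNF700, ZNF585A, ZNF585B, ZNF808, ZNF701, ZNF28, ZNF468, ZNF888 and ZNF816 of these runs, and 93 overlap some gene on the other strand, and the strand setting of the quantification is not stated, so reads of overlapping partners cannot be told apart.

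Outside the 3 runs, other members were lower as well. Before the third run, the 8 neighbouring members from ZNF613 to ZNF836 (chromosome 19, 51927147 to 52171643) were all called lower, with a median log2 fold change of -1.95 and sums from 16.8 to 19.3 CPM in overexpression against 57.0 to 59.6 CPM. ZNF616 was at 0.687, 0.686 and 0.733 against 8.44, 9.77 and 8.50 CPM, 12.7-fold lower, and ZNF613 was 9.3-fold lower. The call of ZNF615 in that row was lost under several alternatives, the replicate block among them. ZNF471, in the cluster nearest the end of the long arm, had 0 reads in overexpression and 3.22, 3.53 and 3.81 CPM in the others, at least 80.2-fold lower (adjusted p = 1.7e-06 by edgeR). Its neighbours on both sides, ZNF583 and ZNF470, were lower as well but had reads in overexpression. A shorter group in that cluster, ZNF304, ZNF547 and ZNF548, was over 4-fold lower throughout. Of these, ZNF304, which has been reported to direct repression of INK4-ARF in colorectal cancer cells, was at 0.644, 1.10 and 0.820 against 8.50, 8.19 and 9.09 CPM, or 10.1-fold lower. ZNF426, on the short arm, was 12.4-fold lower at 0.864 ± 0.0763 against 10.7 ± 0.813 CPM. ZNF536, which stands alone in its cluster and is known as a repressor of neuronal differentiation, was at 0, 0 and 0.216 against 3.42, 3.34 and 2.54 CPM. Its 5 overexpression reads were all in replicate 3, so the 43.0-fold difference becomes a bound of at least 46.7-fold without that library. The fitted log2 fold change was then -9.02 in place of -5.29, but with 0 reads left in overexpression its size is not measured.

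ZNF274 is a member with a known role in this gene family: with KRAB and SCAN domains, it brings SETDB1 to the 3′ ends of other ZNF genes. It was at 17.7, 17.6 and 16.6 CPM in overexpression and 29.8, 30.9 and 33.4 CPM in the libraries labelled wild type, 1.81-fold lower with no overlap (log2 fold change -0.86, adjusted p = 6.9e-06 by edgeR).

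The members that were higher by most in overexpression lay in several clusters. ZNF331, an imprinted KRAB zinc finger gene, closes the cluster that holds the third run and was its one member called higher. It was at 25.7, 25.7 and 27.5 CPM in overexpression and at 0.121, 0.205 and 0.0838 CPM in the other group, 193-fold higher (log2 fold change 7.56, SE 0.217, adjusted p = 3e-10 by edgeR). ZNF43, of the short-arm cluster from 19.67 to 24.13 Mb, was at 2.49, 1.55 and 2.37 CPM against 0 reads in the other group, at least 42.7-fold higher (adjusted p = 1.4e-05). ZNF738 in the same cluster was at 1.46, 1.37 and 1.38 CPM against 2 reads over the group, a ratio of 42.1 with a counting interval from 11.3 to 352 (67.0 without wild-type replicate 1 and 27.4 without replicate 2).

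That short-arm cluster changed direction within itself. From ZNF14 to ZNF708, 5 neighbouring members were lower (ZNF14 was not called without overexpression replicate 3), with ZNF708 at 1.14 ± 0.169 against 5.97 ± 1.04 CPM, 5.24-fold lower. Further on, ZNF429 had 0 reads in overexpression against 0.964 ± 0.110 CPM, and the 4 members from ZNF43 to ZNF254 were all higher. Among those, ZNF726 was at 0.644, 0.640 and 0.820 CPM against 0 reads, at least 14-fold higher, and ZNF254 was 2.92-fold higher at 15.2 ± 0.579 against 5.20 ± 0.341 CPM. Only 12 of the 37 ZNF genes annotated in this cluster met the count minimum.

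On the long arm, ZNF285 was at 1.93, 3.75 and 2.07 CPM against a single read, a ratio of 153 with a counting interval from 27.2 to 6092. Without wild-type replicate 2, which held that read, it was at least 34.8-fold higher. ZNF671, reported elsewhere as a gene lost through promoter methylation in several carcinomas, was at 0.945, 0.732 and 0.604 CPM against 0 reads in the other group, at least 15.2-fold higher (adjusted p = 1.5e-04 by edgeR). ZNF837 was 15.1-fold higher (35.1-fold without wild-type replicate 2), ZNF792 9.45-fold, ZNF773 5.95-fold and ZNF675 4.87-fold.

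A run of higher members, ZNF546 to ZNF428, covered 8 members over 3640 kb (chromosome 19, 39984134 to 43619874), and here the other genes of the span were higher as well. Of the 62 other tested genes in that span 57 were higher and 0 lower, with a median log2 fold change of 1.37, beside 1.08 for the 8 members. ZNF576, which is among them, was not called without overexpression replicate 3 or wild-type replicate 2. ZNF780A, in this run, was at 28.2, 32.3 and 30.9 CPM in overexpression and at 14.9, 13.2 and 15.0 CPM in the others, 2.12-fold higher with no overlap (log2 fold change 1.08, adjusted p = 2.6e-06 by edgeR). ZNF546 was 3.82-fold higher and ZNF526 2.42-fold. A compact run of 6 higher members, ZNF579 to ZNF581, covered 68.9 kb at the start of the last cluster, and both other tested genes there were also higher.

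The cluster from 43.53 to 45.08 Mb, which holds ZNF155 and ZNF222, had neighbours called in opposite directions. Besides ZNF285, described above, its called members differed by less than 3-fold. ZNF155 was at 2.36, 3.20 and 2.93 CPM in overexpression and 6.01, 6.50 and 6.20 CPM in the libraries labelled wild type, 2.2-fold lower (log2 fold change -1.14, adjusted p = 3.7e-04 by edgeR). ZNF222 was at 2.43, 2.42 and 1.66 against 2.49, 2.49 and 3.44 CPM, a small gap that was not called (adjusted p = 0.22). ZNF224, a KRAB repressor of the aldolase A gene, was 1.77-fold higher at 17.3 ± 0.809 against 9.81 ± 0.293 CPM (adjusted p = 5.1e-05). ZNF234 was 2.2-fold lower at 5.55 ± 1.46 against 12.2 ± 0.830 CPM. ZNF226 was not called, at 13.7 ± 0.969 against 13.4 ± 1.00 CPM.

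Members with other known roles differed less. ZNF473, a factor of histone pre-mRNA processing, was 1.43-fold higher at 20.7 ± 0.604 against 14.4 ± 0.381 CPM (adjusted p = 4.5e-04 by edgeR). ZNF350, a partner of BRCA1, was 2.04-fold lower at 1.67, 3.38 and 2.03 against 3.94, 4.50 and 5.99 CPM (adjusted p = 0.0081). ZNF587 and ZNF417, close relatives known to bind elements of the HERV-K family, were not called (adjusted p = 0.15) and 1.35-fold higher (adjusted p = 0.022), respectively. The call of ZNF417 was lost without overexpression replicate 1, without wild-type replicate 1 and with no filter on low counts.

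The enzymes and co-repressors that KRAB proteins work with were mixed. Of 19 genes listed for TRIM28 and SETDB1 silencing, all tested, 8 were higher, 4 lower and 7 not called, with a median log2 fold change of 0.14. That is 42.1% higher and 21.1% lower, beside 38.3% and 35.7% of all tested genes. TRIM28 itself was at 629, 543 and 657 CPM against 386, 368 and 398 CPM, 1.59-fold higher (adjusted p = 2.3e-05 by edgeR). SETDB1 was not called, at 45.5 ± 6.09 against 43.4 ± 2.81 CPM, whereas its partner ATF7IP was 2.04-fold lower at 45.7 ± 3.68 against 93.3 ± 5.44 CPM. The HP1 genes CBX1 and CBX5 were 2.11-fold and 1.67-fold higher, and CBX3 was not called.

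For DNA methylation, DNMT3B was 2.63-fold and UHRF1, which guides DNMT1 to replicated DNA, 2.03-fold higher, whereas the maintenance enzyme DNMT1 was 1.49-fold lower at 148 ± 12.8 against 222 ± 16.8 CPM (adjusted p = 9.3e-05 by edgeR). Of the demethylases, TET1 was at 5.20, 5.12 and 5.39 against 0.728, 0.716 and 1.00 CPM, 6.41-fold higher, TET2 was 1.57-fold lower and TET3 was not called. The HUSH complex and its partners, which silence transposons and other repeats, had 1 of 4 genes higher and 2 lower, none by more than 1.29-fold. Of 5 factors listed for cluster boundaries and for heterochromatin at ZNF genes, 3 were lower, while ATRX and DAXX were not called. The boundary protein CTCF was lower by 1.51-fold, ZNF274 as above and ADNP by 1.28-fold. With 74.0% of all tested genes called, nothing is read from the counts of these short lists.

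Zinc finger genes of chromosome 19 with other kinds of name were split. Of 15 listed, 6 were tested, 3 higher and 3 lower, and the others had few or no reads or, for ZFP112, no entry under that name. Beside 74.0% of all tested genes called, 6 genes are too few to read a share from. ZSCAN18 was at 0.344, 0.320 and 0.172 CPM in overexpression, beside 20.3, 20.7 and 18.4 CPM in the other group, 71.0-fold lower (adjusted p = 1.9e-09 by edgeR). ZFP30 was 3.60-fold lower and ZFP14 2.49-fold higher.

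The sequences near the starts of the members were also described. RefSeq promoters of 300 bases, from 250 before to 50 after the start, matched 163 of the 183 members. The median ratio of observed to expected CpG was 0.797 over the members, 0.801 over the 36 that were over 4-fold lower, 0.739 over the 31 that were not called and 0.809 over the 43 called higher, beside 0.737 for 22199 promoters of coding genes. Of the 6 shown above, ZNF83 had the highest ratio, 0.933, ZNF568 had 0.782, ZNF331 had 0.675, ZNF799 had 0.629, ZNF700 had 0.591 and ZNF43 had 0.492. DNA methylation itself was not measured in these libraries.

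The core motif of hypoxia response elements, ACGTG or GCGTG on either strand, is bound by HIF-1β with its partners. It contains a CpG, so its count can depend on CpG content, which was not tested. It was found in 103 of the 163 member promoters, or 63.2%, in 25 of the 36 over 4-fold lower, in 16 of the 31 not called and in 26 of the 43 called higher, beside 54.7% of coding and 48.4% of all promoters of this length. In the 3 long runs 10 of the 19 matched promoters held it, 1 of 5 in the first run, 5 of 8 in the second and 4 of 6 in the third.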

How the data were processed

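The values are estimated counts per gene that the authors deposited as a table made with salmon, per the file headers; the genome build is GRCh38 and reads were demultiplexed with bcl2fastq 2.20, per the submitters' processing notes. No source used here gives other versions, the annotation or the strand setting. The table also holds 6 columns of per-sample values that match no sample of the series, and they were not used. Between 8.18% and 9.51% of a library's gene counts were not whole numbers, since salmon divides reads among similar transcripts, and counts were rounded for the tests. Members, gene lists and cluster rules were chosen with earlier results of these data known. Positions come from GENCODE release 29.

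Genes were tested with edgeR 4.0.16 (quasi-likelihood, TMM scaling, filterByExpr with a smallest count of 10, R 4.3.3) over all 16091 genes that passed, with Benjamini-Hochberg adjustment and a threshold of 0.05, and the procedure was tested on simulated data. Folds between group means of CPM use the TMM-scaled totals. With 0 reads in a group the fold is a bound at 3 counts over the group, which is 0.0439 CPM in overexpression and 0.0501 CPM in the other; with 1 to 3 reads a 95% interval from an exact binomial split of the reads is given. Intervals and bounds cover counting error only. Fitted log2 fold changes of genes with 0 reads in a group are not measured sizes. The median of the second long run rests in part on such a gene, ZNF345. Replicates of a group differed by more than sampling noise (chi-square per degree of freedom 6.03 to 15.8), so none was a copy of another.

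The batch label repeats the replicate number, which pairs libraries of the same number; the deviations of same-numbered libraries correlated at 0.0013, 0.096 and 0.022, and those of differently numbered ones at -0.07 to 0.047. Alternatives were other scalings, other filters, DESeq2 1.42.0, a replicate block, each library left out and a member minimum of 20 counts. Besides any gene that a comparison turns on, chosen after its values were seen, the text names ZNF155, ZNF222 and ZNF780A, the 10 largest rises and falls among called members with separate ranges and at least 1 CPM, the leading member of each cluster, the 5 with the highest CPM and the 5 highest uncalled, members on in 1 group and near-silent in the other, and the listed genes. Promoters and sequences are from RefSeq on GRCh38.p14.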

Additional observations from a re-analysis of the deposited data

How the results depend on the processing

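Across the alternatives 42 to 52 members were called higher and 88 to 97 lower, 39 to 42 were over 4-fold lower, and no called member changed sign. With library totals in place of TMM the median of all tested genes moved from 0.03 to 0.15 and that of the members to -0.41, by more than its spread over the 3 numbered pairs of libraries (SD 0.0966 around -0.54, -0.42 and -0.61). The replicate block, with the pairing that the batch label gives, left 47 members higher and 94 lower with a median of -0.51, and it changed the call of none of the 42 members named by rule. Of these, 37 kept their call in every alternative. The exceptions beside ZNF146 and ZNF766 were ZNF558, called without overexpression replicate 3 (adjusted p = 0.023), ZNF587 without overexpression replicate 2 (0.025) and ZNF584 without wild-type replicate 3 (0.043) by edgeR. In the 8 larger clusters 181 of 192 counts of calls stayed within 1.5 times, and the other 11 were counts of higher members, all between 1 and 3. A break of 0.5 Mb gave 20 clusters. Without a filter 7210 genes were higher and 6381 lower in all. Below about 0.182 CPM, 3 counts in the shallowest library, levels could not be resolved. Folds between group means without single libraries, given in the report, were chosen after seeing the data.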
